A study of Saccharomyces cerevisiae with 9 samples.

Results

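Transcripts of 10 genes for abundant structural proteins of the yeast cell wall were followed: SED1, CCW12, CCW14, CWP1, CWP2, TIP1, PIR1, HSP150, PIR3 and CIS3. They were chosen by gene name, from what their proteins are, with earlier results of these data known. All 10 had a value and a test in both deposited tables, which hold 7012 entries (CdSe/ZnS) and 7042 entries (InP/ZnS). RNA came from the budding yeast Saccharomyces cerevisiae, strain S288C, grown in glucose medium to an optical density of 0.3 to 0.6. The 3 groups, of 3 libraries each, were cells given 10 µg/mL of CdSe/ZnS quantum dots, cells given 100 µg/mL of InP/ZnS quantum dots and untreated cells. Exposure lasted 6 h at 30 °C. Quantum dots are semiconductor nanocrystals, here with a core of cadmium selenide or indium phosphide in a shell of zinc sulfide. One label text gives the InP/ZnS dose in other units than the design text, which was followed, and kind and dose of dot change together, so they cannot be told apart. No label says that the 3 libraries of a group are separate cultures, and p-values then reflect only how far these libraries vary, which may be technical.

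The yeast wall is a mesh of beta-glucan with some chitin, covered by a coat of heavily mannosylated proteins. Most coat proteins are made with a glycolipid (GPI) anchor and are then moved onto glucan, as are the products of SED1, CCW12, CCW14, CWP1, CWP2 and TIP1. The PIR proteins (named for internal repeats), here those of PIR1, HSP150, PIR3 and CIS3, have no such anchor and are bound to glucan by an alkali-sensitive link. Cells change the make-up of this coat with growth phase, cell cycle, temperature, oxygen and wall damage.

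Levels are in FPKM, mapped fragments scaled for annotated length and library size. The annotated lengths of the 10 genes are those of their coding regions, without the untranslated ends of the transcript. Levels of genes of unlike length therefore compare only roughly. The authors deposited 1 FPKM value per gene and condition, so no spread between libraries and no sequencing depth is known. The treated and untreated values of a table were normalised together and the 2 tables separately. Untreated values of all entries were 1.14 times as high in the InP/ZnS table as in the CdSe/ZnS table at the median, and those of the 10 genes 1.12 times (CWP2) to 1.34 times (PIR3), so levels are compared within a table. Fold changes are log2 ratios of treated over untreated, with the standard error (SE) that the authors' own test statistic implies, and a gene was called at the authors' q under 0.05.

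The labels give no mating type; S288C itself is known as an alpha strain. The 7 a-cell markers, among them the pheromone genes MFA1 and MFA2, summed to 25709 FPKM with CdSe/ZnS and 41087 FPKM untreated, and to 47799 FPKM with InP/ZnS and 51869 FPKM untreated. The alpha-cell markers that were tested summed to 67.7 FPKM with CdSe/ZnS and 78.0 FPKM untreated (3 genes), and to 96.4 FPKM with InP/ZnS and 92.7 FPKM untreated (4 genes). Of 5 tested markers of sporulating diploids, 2 were higher and 2 lower with CdSe/ZnS, and 2 were higher and 1 lower with InP/ZnS. The a-cell sums rest on MFA1 and MFA2, at 11133 and 14225 FPKM with CdSe/ZnS and 18407 and 22155 FPKM untreated. In the CdSe/ZnS table the a-cell markers ASG7, BAR1 and STE6 lay below the alpha-cell markers SAG1 and MF(ALPHA)2. STE2 and AGA2 lay above every alpha-cell marker in both tables, at 122 and 177 FPKM with CdSe/ZnS and 102 and 363 FPKM untreated. Lowest of the a-cell and alpha-cell markers in the CdSe/ZnS table were STE3 and the untested MF(ALPHA)1. STE3 had 2.68 FPKM with CdSe/ZnS and 3.76 FPKM untreated, and MF(ALPHA)1 had 0.670 and 0.848 FPKM. No marker was listed at 0 in both conditions of a table, and the part of these differences in the results was not tested.

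In untreated cells the 10 genes spanned a wide range of levels. CCW12 stood highest, at 21101 FPKM in the CdSe/ZnS table and 25766 FPKM in the InP/ZnS table, and ranked 5 by level among all entries tested in both. CWP2 followed at 10234 and 11492 FPKM, and SED1 at 5565 and 6523 FPKM. After these highly expressed genes came a middle group. HSP150, TIP1 and CCW14 lay between 1391 and 2593 FPKM, and CIS3 and PIR1 between 462 and 682 FPKM. CWP1 and PIR3 stood lowest, at 52.3 and 39.5 FPKM in the CdSe/ZnS table and 66.0 and 52.8 FPKM in the InP/ZnS table. The untreated median of all entries tested was 48.1 FPKM in the first table and 53.7 FPKM in the second. At the RNA level CWP1 and PIR3 were therefore not abundant here. CCW12 thus had 535 times the level of PIR3 in the first table and 488 times in the second. Without values per library, it cannot be said which neighbours in this order differ beyond their spread. The order and these ratios also rest on scaling by coding length, 402 bp for CCW12, 279 bp for CWP2 and 978 bp for PIR3.

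**Figure D1:**
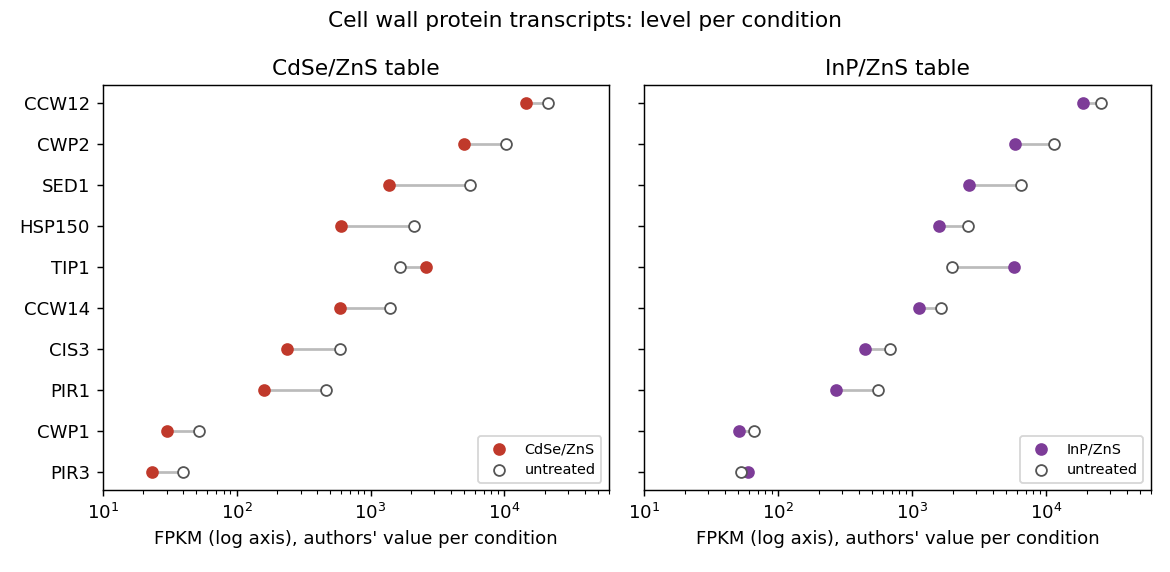
Level of each gene in FPKM on a log axis, 1 authors' value per condition, with the treated condition as a filled point and the untreated one as an open point, for the CdSe/ZnS table (left) and the InP/ZnS table (right). As deposited, filled points lie left of open ones for 9 genes with CdSe/ZnS (CCW12 reverses on 2 other scales) and for 8 with InP/ZnS; TIP1 lies the other way in both, and PIR3 nearly coincides with InP/ZnS.

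All 10 coding regions are single exons on chromosomes II, IV, X, XI and XII, and none shares its locus with another entry of the tables. Of these, 6 lie in neighbouring pairs with no other protein-coding gene between: PIR1 and PIR3 are divergent with 1581 bp between them, HSP150 and CIS3 are convergent with 574 bp, and CWP2 and CWP1 follow each other with 1600 bp. Coordinates are those of the deposited tables, counted from 1; they match assembly R64 for 99.5% of 5245 entries (CdSe/ZnS) and 99.6% of 5250 (InP/ZnS). Sequences come from the RefSeq genome of that assembly.

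The PIR genes are a family, so it matters whether reads can be assigned to 1 of them. The longest identical run was 81 bases between PIR1 and PIR3 and 65 bases between HSP150 and CIS3, and no other pair of the 10 genes shared more than 26 bases in a row. The authors kept reads of 80 bases or more. Of all 80-base windows in the 10 coding regions, 2 of 947 in PIR1 and 2 of 899 in PIR3 recur elsewhere in the genome, and 0 in the other 8 genes. Those windows come from the longest run that PIR1 and PIR3 share, 81 bases near the start of both genes. It is shown in capitals with 15 bases on either side, because it is the only place where full reads of 2 members would be the same (chrXI:142686-142796, minus strand, for PIR1, and chrXI:144424-144534, plus strand, for PIR3, both coding bases 24 to 134 of their gene).
PIR1: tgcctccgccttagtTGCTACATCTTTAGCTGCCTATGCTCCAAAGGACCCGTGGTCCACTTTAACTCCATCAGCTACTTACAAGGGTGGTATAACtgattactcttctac
PIR3: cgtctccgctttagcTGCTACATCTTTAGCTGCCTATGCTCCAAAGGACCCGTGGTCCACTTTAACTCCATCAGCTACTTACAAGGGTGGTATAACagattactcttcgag

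The first comparison set cells exposed to CdSe/ZnS against untreated cells. With CdSe/ZnS 9 of the 10 wall protein genes fell and 1, TIP1, rose. CCW12, however, turned slightly higher with the length trend removed and as a share of the FPKM of tested protein-coding entries. SED1 and HSP150 fell furthest, to 1377 FPKM with CdSe/ZnS against 5565 FPKM untreated and to 605 FPKM against 2103 FPKM. The median log2 fold change of the 10 genes was -1.13, against -0.35 for all 6321 entries tested. Of those entries 43.6% were called lower and 9.59% higher by the authors' q, so a gene taken from the whole table was itself lower in many cases. In these bulk samples, fewer cells that express a gene and less of its RNA per cell cannot be told apart.

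Among the anchored proteins, SED1 encodes a stress-induced coat protein known as abundant in stationary cells. Its log2 fold change of -2.01 (implied SE 0.25, q = 0.000173, the authors' deposited table) is a 4.04-fold lower level with CdSe/ZnS, and only 99 entries had a lower value. CCW14, which encodes a protein of the inner wall, had 592 FPKM with CdSe/ZnS and 1391 FPKM untreated (log2 fold change -1.23, implied SE 0.25, q = 0.000173, the authors' deposited table). Levels of both SED1 and CCW14 with CdSe/ZnS were thus well under those of untreated cells. CWP2, which encodes a very small mannoprotein of the coat, had 5014 FPKM with CdSe/ZnS and 10234 FPKM untreated (log2 fold change -1.03, implied SE 0.26, q = 0.000173, the authors' deposited table). Its relative CWP1 had 30.2 FPKM with CdSe/ZnS and 52.3 FPKM untreated (log2 fold change -0.79, implied SE 0.24, q = 0.000173, the authors' deposited table). Both CWP genes were therefore lower as deposited, at levels that lie far apart. Relative to the median of all entries CWP1 stood at -0.44 in log2 and did not pass a normal test.

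CCW12, whose product is needed for a firm wall in growing cells, had the smallest fall. It stood at 14581 FPKM with CdSe/ZnS and 21101 FPKM untreated, a log2 fold change of -0.53 (implied SE 0.27, q = 0.0128, the authors' deposited table). It did not pass a normal test of that fold over its SE, and its direction depended on the scale (0.13 in log2 with the length trend removed). TIP1, named for its induction by temperature shock and a relative of the anaerobic TIR genes, rose 1.57-fold, to 2587 FPKM with CdSe/ZnS against 1651 FPKM untreated (log2 fold change 0.65, implied SE 0.25, q = 0.000771, the authors' deposited table). Ranked by level among all entries tested, TIP1 stood 42nd with CdSe/ZnS and 129th untreated, whereas SED1 stood 102nd with CdSe/ZnS and 30th untreated.

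All 4 PIR genes fell with CdSe/ZnS. HSP150, whose product is secreted in larger amounts after heat shock, had a log2 fold change of -1.80 (implied SE 0.22, q = 0.000173, the authors' deposited table). PIR1, whose product is found at bud scars, had 161 FPKM with CdSe/ZnS and 462 FPKM untreated, a 2.86-fold lower level (log2 fold change -1.52, implied SE 0.22, q = 0.000173, the authors' deposited table). CIS3, also called PIR4, encodes a further protein of the family. CIS3 had 239 FPKM with CdSe/ZnS and 588 FPKM untreated (log2 fold change -1.30, implied SE 0.23, q = 0.000173, the authors' deposited table). PIR3, the least abundant, had 23.2 FPKM with CdSe/ZnS and 39.5 FPKM untreated (log2 fold change -0.77, implied SE 0.23, q = 0.000173, the authors' deposited table). As deposited, the divergent neighbours PIR1 and PIR3 were thus both lower, as were the convergent pair HSP150 and CIS3. Of all entries tested, 43.6% were called lower too. Relative to the median of all entries PIR3 stood at -0.42 in log2 and did not pass a normal test, unlike PIR1, HSP150 and CIS3. Differences within a pair were not tested. The q of 0.000173 is the smallest this table holds, so it does not rank these genes.

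The second comparison set cells exposed to InP/ZnS against the same untreated libraries. With InP/ZnS 8 of the 10 genes fell, TIP1 rose, and PIR3 did not pass. The median of the 10 genes was -0.58, whereas that of all 6367 entries tested was 0.07. The authors' q called 17.2% of these entries lower and 23.9% higher, so falls were a smaller part of this table than of the CdSe/ZnS one.

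SED1 was again the furthest fall of the 10, with 2630 FPKM in InP/ZnS cells and 6523 FPKM untreated (log2 fold change -1.31, implied SE 0.29, q = 0.000252, the authors' deposited table). CWP2 had 5857 FPKM with InP/ZnS and 11492 FPKM untreated (log2 fold change -0.97, implied SE 0.26, q = 0.000252, the authors' deposited table). CCW14 had 1119 FPKM with InP/ZnS and 1627 FPKM untreated (log2 fold change -0.54, implied SE 0.25, q = 0.00108, the authors' deposited table). Of these genes SED1 was 2.48-fold lower and CCW14 1.45-fold lower. CCW12 had 18761 FPKM with InP/ZnS and 25766 FPKM untreated (log2 fold change -0.46, implied SE 0.30, q = 0.0288, the authors' deposited table). CWP1 had 50.7 FPKM with InP/ZnS and 66.0 FPKM untreated (log2 fold change -0.38, implied SE 0.26, q = 0.0309, the authors' deposited table). CCW14, CCW12 and CWP1 did not pass the normal test of the fold over its SE, so their calls rest on the authors' own p-values.

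TIP1 rose 2.90-fold with InP/ZnS, to 5702 FPKM against 1968 FPKM untreated (log2 fold change 1.53, implied SE 0.28, q = 0.000252, the authors' deposited table). At that level it lay 32nd of all entries tested, just below CWP2, which lay 31st. Untreated, TIP1 lay 129th. Of the PIR genes, PIR1 had 271 FPKM with InP/ZnS and 552 FPKM untreated (log2 fold change -1.02, implied SE 0.22, q = 0.000252, the authors' deposited table). HSP150 and CIS3 were lower as well. HSP150 had 1591 FPKM with InP/ZnS and 2593 FPKM untreated (log2 fold change -0.70, implied SE 0.25, q = 0.000252, the authors' deposited table). CIS3 had 441 FPKM with InP/ZnS and 682 FPKM untreated (log2 fold change -0.63, implied SE 0.23, q = 0.000252, the authors' deposited table). PIR3 had 59.3 FPKM with InP/ZnS and 52.8 FPKM untreated, a log2 fold change of 0.17 (implied SE 0.23, 95% interval -0.29 to 0.62, q = 0.361, the authors' deposited table). Of the divergent pair, PIR1 was thus lower and PIR3 was not called.

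**Figure D2:**
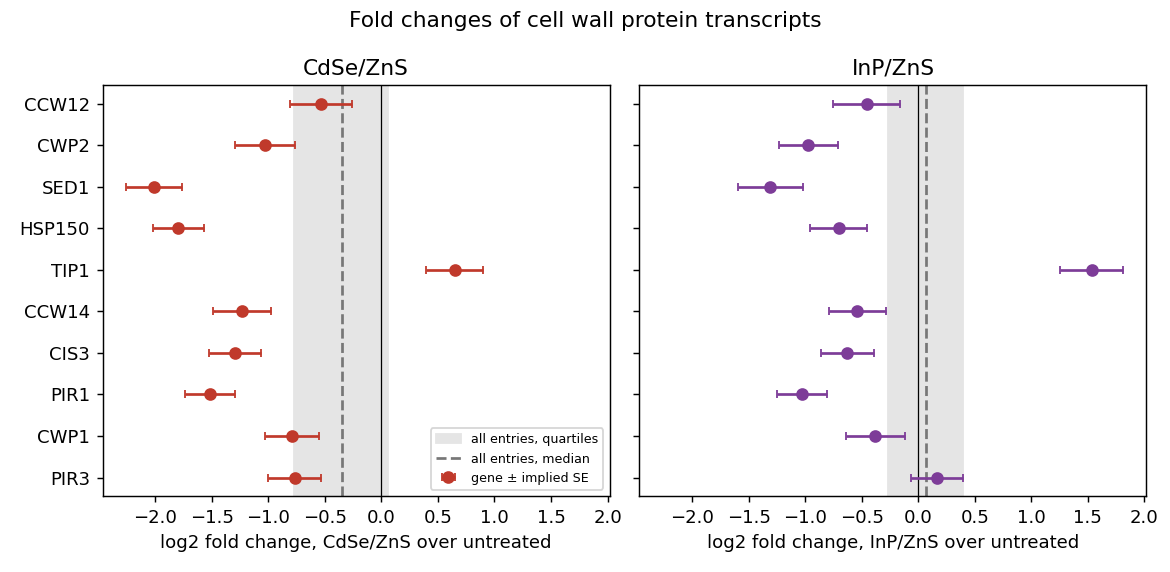
Log2 fold change of each gene over untreated cells (points) with the implied standard error (bars), for CdSe/ZnS (left) and InP/ZnS (right); the dashed line and grey band are the median and quartiles of all entries tested. With CdSe/ZnS the median of all entries is -0.35 and SED1 and HSP150 lie furthest left; with InP/ZnS it is 0.07, and TIP1 lies far right at 1.53.

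The CdSe/ZnS table as a whole leaned to lower values, so the 10 genes were also read relative to the median of all entries. On that scale the median of the 10 genes was -0.78 for CdSe/ZnS and -0.65 for InP/ZnS. By a normal test of the shifted fold over its implied SE, with Benjamini-Hochberg adjustment, 6 of the 10 were lower and TIP1 higher with CdSe/ZnS, where 13.6% of all entries were lower and 11.9% higher. The 6 were SED1 (-1.67), HSP150 (-1.45), PIR1 (-1.17), CIS3 (-0.95), CCW14 (-0.88) and CWP2 (-0.68), in log2. With InP/ZnS 5 were lower and TIP1 higher, where 8.32% of all entries were lower and 7.87% higher: SED1 (-1.38), PIR1 (-1.09), CWP2 (-1.04), HSP150 (-0.77) and CIS3 (-0.70). CCW12, CWP1 and PIR3 passed this test with neither quantum dot. TIP1 stood at 0.995 with CdSe/ZnS and at 1.47 with InP/ZnS, in log2, and passed in both. Without the shift, the same normal test called 8 of the 10 lower with CdSe/ZnS and 5 with InP/ZnS. Of all entries it then called 1871 lower with CdSe/ZnS and 417 lower with InP/ZnS. Part of the change from the authors' calls thus came with the test and not with the shift.

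Coding length moved with the fold change in the CdSe/ZnS table. The 10 genes run from 279 bp (CWP2) to 1242 bp (HSP150), and all but HSP150 are shorter than the median of 1218 bp for all 5704 tested entries with a length. The 2733 entries in that range had a median log2 fold change of -0.54 with CdSe/ZnS, and 2756 had 0.02 with InP/ZnS. At the lengths of the 10 genes the trend of all entries ran from -0.72 to -0.39 with CdSe/ZnS and from -0.02 to 0.09 with InP/ZnS. With this trend removed, the normal test called 5 genes lower with CdSe/ZnS, against 12.3% of all entries lower and 10.8% higher: SED1 (-1.57), HSP150 (-1.40), PIR1 (-1.08), CIS3 (-0.73) and CCW14 (-0.66). CWP2, the shortest, no longer passed (-0.30), and CCW12 turned to 0.13 and did not pass. TIP1 stayed higher, at 1.28 with CdSe/ZnS and 1.54 with InP/ZnS. With InP/ZnS the same 5 genes as relative to the median were lower, where 9.28% of all entries were lower and 8.44% higher.

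**Figure D3:**
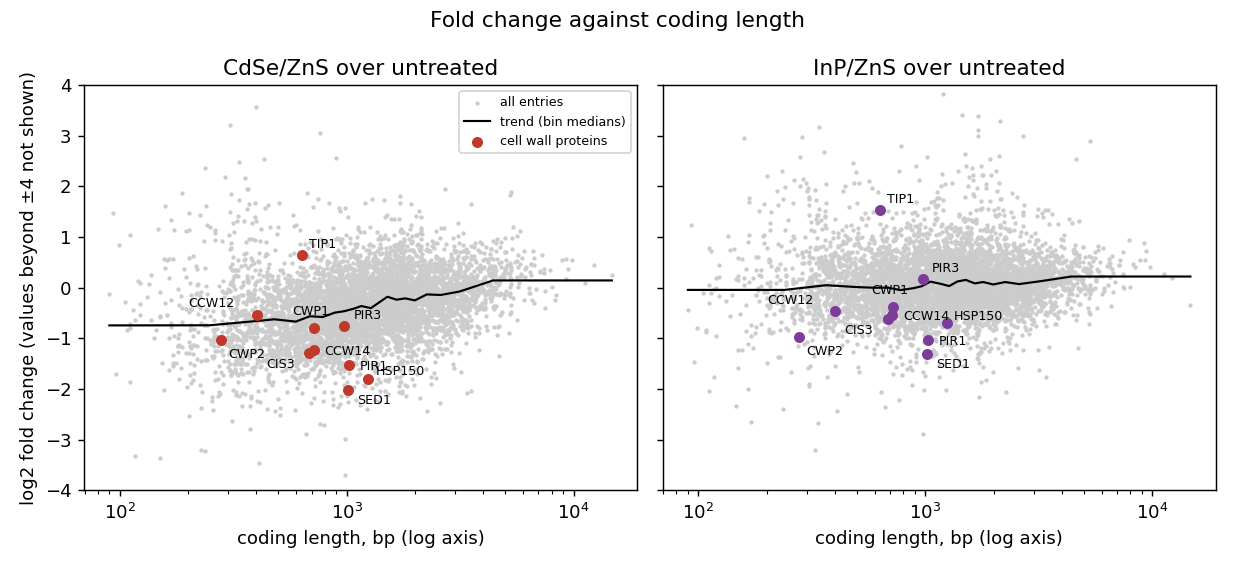
Log2 fold change against coding length (log axis) for all entries tested (grey), with the trend of bin medians (line) and the 10 wall protein genes (coloured), for CdSe/ZnS (left) and InP/ZnS (right). The line climbs with length in the left panel and is nearly flat in the right one; SED1, HSP150 and PIR1 lie well below it in both, and TIP1 above it.

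A further scale, chosen after seeing the data, sets each gene against the summed FPKM of the tested protein-coding entries of its condition. It is given in parts per 1000000 and removes the authors' scaling between conditions. Entries without a test are left out of the sum. Of these, 14 were marked HIDATA in the CdSe/ZnS table and 0 in the InP/ZnS table, so the sums may cover unlike entries. On this scale SED1 had 1494 parts per 1000000 with CdSe/ZnS and 4003 untreated, and 1583 with InP/ZnS and 4018 untreated. TIP1 had 2807 parts per 1000000 with CdSe/ZnS and 1188 untreated, and 3432 with InP/ZnS and 1212 untreated. SED1 thus fell short of its untreated share in both tables and TIP1 exceeded it. CWP2 had 5439 with CdSe/ZnS and 7361 untreated, and 3525 with InP/ZnS and 7078 untreated. CCW12 had 15816 with CdSe/ZnS and 15179 untreated, so it was slightly higher there, and 11292 with InP/ZnS and 15870 untreated. The other 6 genes kept their direction in both tables on this scale, PIR3 with InP/ZnS among them at 35.7 and 32.5. The sum leans on a few very short and abundant entries, YPR036W-A alone making up 4.86% with CdSe/ZnS and 5.73% untreated, and 7.96% with InP/ZnS and 5.62% untreated.

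Together the 10 genes made up 2.73% of the protein-coding sum with CdSe/ZnS and 3.11% untreated, and 2.20% with InP/ZnS and 3.16% untreated. CCW12 and CWP2 carried most of that, so the total mainly follows this pair. CCW12 held 57.8% of the summed level of the 10 with CdSe/ZnS and 48.9% untreated, and 51.4% with InP/ZnS and 50.2% untreated. These shares have no replicate check.

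**Figure D4:**
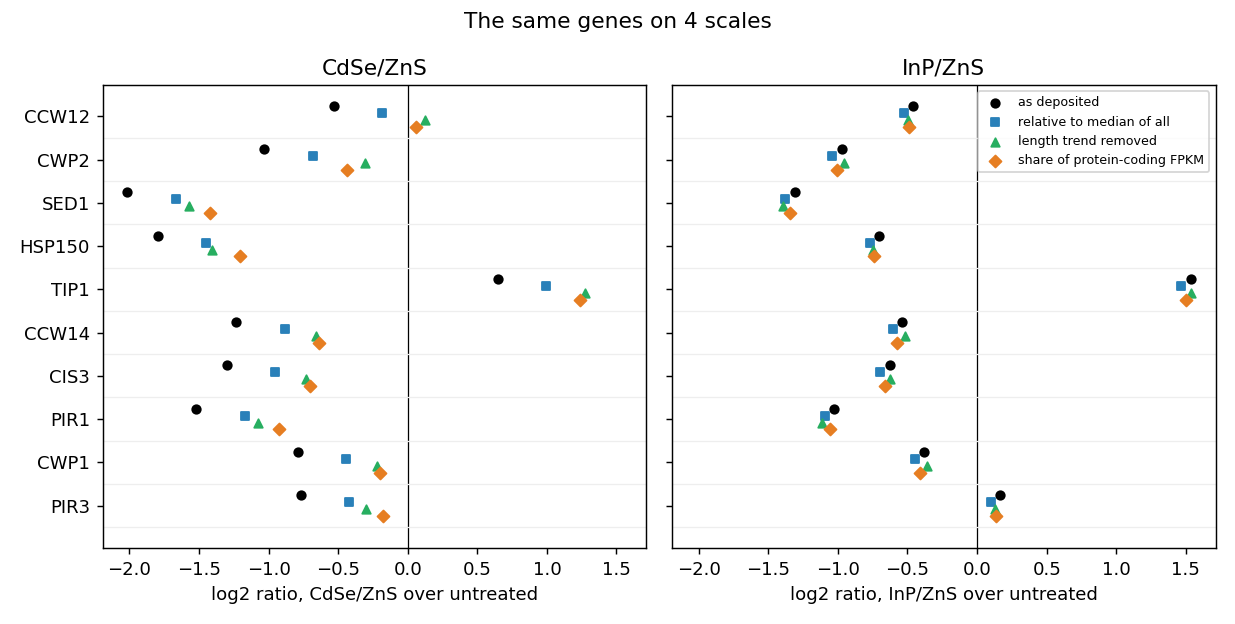
Log2 ratio of treated over untreated for each gene on 4 scales: as deposited, relative to the median of all entries, with the length trend removed, and as a share of the protein-coding FPKM, for CdSe/ZnS (left) and InP/ZnS (right). The scales spread apart with CdSe/ZnS, where CCW12 crosses 0, and lie close together with InP/ZnS; SED1 is far below 0 and TIP1 above 0 on all 4.

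The difference between the quantum dots was tested as the CdSe/ZnS log2 fold change minus the InP/ZnS one, over the root of their summed squared SEs, adjusted over the 6290 entries tested in both tables. The untreated libraries are shared, which makes this error too large where they vary. Of the 10 genes, HSP150 and PIR3 passed with lower values for CdSe/ZnS, where 12.0% of all entries did, and 0 passed with higher values, where 0.318% did. HSP150 differed by -1.09 (95% interval -1.75 to -0.43) and PIR3 by -0.93 (95% interval -1.58 to -0.29), on the log2 scale. TIP1 differed by -0.89 (95% interval -1.63 to -0.15) and did not pass after adjustment, its rise being 1.57-fold with CdSe/ZnS and 2.90-fold with InP/ZnS. CWP2 and CCW12 differed by -0.06 (95% interval -0.79 to 0.67) and -0.08 (95% interval -0.87 to 0.72). The difference of the median entry was itself -0.41. Relative to the medians of the tables, 0 of the 10 passed the normal test, where 2.07% of entries were lower and 0.986% higher, and 1, HSP150, had an unadjusted p under 0.05 (difference -0.68, 95% interval -1.34 to -0.02).

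Upstream of each start codon, the 100 nearest bases were left out and the 300 bases before them were searched on both strands for 6 short motifs. Letters for a TATA box, TATAAA, occurred in 7 of the 10 windows, all but those of CWP1, PIR3 and CIS3, and in 43.8% of 6001 windows of all protein-coding genes. CTA and TAG with 4 bases of any kind between, letters of the site for Rlm1, the transcription factor at the end of the wall integrity pathway, occurred in 4 of the 10 (CCW14, CWP1, HSP150, PIR3) and in 5.53% of all windows. CGCGAAA, a site of the cell-cycle factors Swi4 and Swi6, occurred in CCW12 and CWP2 and in 4.53% of all. Motifs of stress and low oxygen were also searched. AGGGG, the stress response element bound by Msn2 and Msn4, occurred in SED1, PIR3 and CIS3 and in 23.5% of all. TTCNNGAA, letters of a heat shock element, occurred in CCW14 and CIS3 and in 13.8% of all. ATTGTT, a core bound by the hypoxic repressor Rox1, occurred in CWP1 and TIP1 and in 31.9% of all. These are matches of letters only. Other forms of each motif were not searched, so a window without a match, for TATAAA among others, may still hold one.

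The windows of SED1, the furthest fall among the 10 genes in both tables, HSP150, with a large fall under CdSe/ZnS, and TIP1, the gene that rose, are shown because the results turn on these genes. Capitals mark every match to the motifs (SED1 chrIV:600393-600692, plus strand; HSP150 chrX:120049-120348, plus strand; TIP1 chrII:372836-373135, minus strand). The first match is AGGGG in SED1, that of Rlm1 in HSP150 and that of Rox1 in TIP1. The last match in each is TATAAA, starting 131 bases before the start codon in SED1 and HSP150 and 142 bases in TIP1.
SED1: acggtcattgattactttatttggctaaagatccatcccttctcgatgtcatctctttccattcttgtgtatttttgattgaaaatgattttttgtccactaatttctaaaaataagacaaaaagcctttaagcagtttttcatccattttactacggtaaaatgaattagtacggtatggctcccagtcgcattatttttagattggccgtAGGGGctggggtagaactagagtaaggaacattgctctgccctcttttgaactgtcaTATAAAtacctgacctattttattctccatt
HSP150: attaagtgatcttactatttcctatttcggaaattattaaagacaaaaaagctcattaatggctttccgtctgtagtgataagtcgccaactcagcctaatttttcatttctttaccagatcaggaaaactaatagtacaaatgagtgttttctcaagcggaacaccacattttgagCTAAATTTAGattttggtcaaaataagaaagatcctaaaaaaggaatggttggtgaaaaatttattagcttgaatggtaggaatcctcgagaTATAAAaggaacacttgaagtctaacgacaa
TIP1: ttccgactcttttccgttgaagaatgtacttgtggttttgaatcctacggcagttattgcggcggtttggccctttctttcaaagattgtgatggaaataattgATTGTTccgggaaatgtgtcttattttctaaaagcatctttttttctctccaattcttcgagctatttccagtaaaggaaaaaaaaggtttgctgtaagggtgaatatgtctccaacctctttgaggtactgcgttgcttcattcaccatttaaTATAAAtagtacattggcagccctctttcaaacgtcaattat

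Other cell wall genes were counted in 4 lists that leave the 10 out. Beside these counts stand 43.6% of all entries lower and 9.59% higher with CdSe/ZnS, and 17.2% lower and 23.9% higher with InP/ZnS; a list's share near these is no result about the list. Of 20 other covalently bound wall proteins, 3 were higher and 10 lower with CdSe/ZnS, with a median log2 fold change of -0.32, and 10 were higher and 4 lower with InP/ZnS, with a median of 0.41. YLR194C, a further GPI-anchored wall protein gene, had 744 FPKM with CdSe/ZnS and 4784 FPKM untreated, and 1298 FPKM with InP/ZnS and 6075 FPKM untreated (q = 0.000173 and q = 0.000252, the authors' deposited table). SPI1, a relative of SED1, had 524 FPKM with CdSe/ZnS and 2775 FPKM untreated (log2 fold change -2.40, the authors' deposited table). With InP/ZnS SPI1 had 2449 FPKM, against 3406 FPKM untreated (log2 fold change -0.48, implied SE 0.26, the authors' deposited table). TIR1, of the family of TIP1, and DAN1, both genes of anaerobic growth, had log2 fold changes of 3.05 and 2.56 with CdSe/ZnS and of 4.45 and 4.37 with InP/ZnS (the authors' deposited table). Their relatives did not all follow. With CdSe/ZnS TIR2 was called higher (0.41), DAN4 lower (-0.36), and TIR3 (0.14) and TIR4 (0.16) were not called, in log2 (the authors' deposited table). With InP/ZnS TIR2 (0.71) and TIR3 (0.75) were called higher, and TIR4 (0.32) and DAN4 (0.25) were not called, in log2 (the authors' deposited table). DAN1 stood at only 17.2 FPKM with InP/ZnS and 0.828 FPKM untreated. In the CdSe/ZnS table it lay lower still, at 3.94 FPKM with CdSe/ZnS and 0.669 FPKM untreated. Its fold change there is loosely known (implied SE 0.93, q = 0.0225, the authors' deposited table). TIP1 itself stood at a far higher level than these relatives.

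Of 24 wall remodelling enzymes 1 was higher and 14 lower with CdSe/ZnS (median -0.49), and 2 were higher and 14 lower with InP/ZnS (median -0.57). CRH1, which links chitin to glucan, PST1 and NCA3 had log2 fold changes of -2.10, -1.51 and -1.29 with CdSe/ZnS (the authors' deposited table). YPS1, a surface protease, EXG1, a glucanase, and GAS2, a glucan elongase of sporulation, had -1.32, -1.10 and 1.36 with InP/ZnS (the authors' deposited table). Of 29 genes of glucan, mannan and chitin synthesis 7 were higher and 15 lower with CdSe/ZnS (median -0.42), and 6 were higher and 11 lower with InP/ZnS (median -0.19). CHS1, the chitin synthase of wall repair, had -2.08 for CdSe/ZnS and -1.77 for InP/ZnS, and KRE1 and MNN9 had -2.14 and -1.39 with CdSe/ZnS (the authors' deposited table). SKN1 and PMT2 had 1.13 and -0.82 with InP/ZnS (the authors' deposited table).

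Of 16 sensors and regulators of wall integrity 1 was higher and 10 lower with CdSe/ZnS (median -0.47), and 2 were higher and 2 lower with InP/ZnS (median 0.10). RLM1 itself had 32.7 FPKM with CdSe/ZnS and 107 FPKM untreated, and 67.0 FPKM with InP/ZnS and 113 FPKM untreated (log2 fold changes -1.71 and -0.76, the authors' deposited table). PTP2, a phosphatase of the pathway's kinase, had -0.88 with CdSe/ZnS and -0.66 with InP/ZnS (the authors' deposited table). MID2, which shares its locus with another entry and is uncertain, had -0.94 with CdSe/ZnS, and WSC3, a surface sensor, 0.69 with InP/ZnS (the authors' deposited table). The list medians are read against -0.35 and 0.07 for all entries tested.

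**Figure D5:**
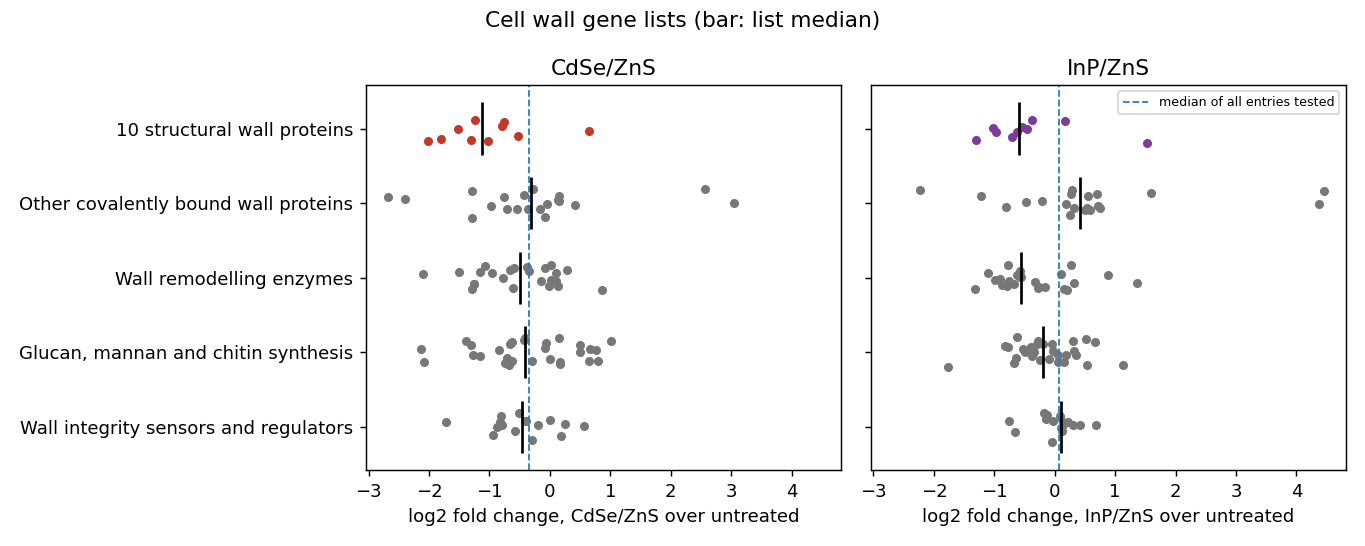
Log2 fold change of every tested gene in the 10 structural wall proteins (coloured) and in 4 other cell wall lists (grey), for CdSe/ZnS (left) and InP/ZnS (right); black bars are list medians and the dashed line is the median of all entries tested. The 10 genes have the lowest list median with CdSe/ZnS (-1.13) and, with InP/ZnS, one close to that of the remodelling enzymes (-0.58 and -0.57).

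The genes nearest to the 10 in pattern, by the distance of their 2 log2 fold changes from the medians of the 10, were FLC1, FYV4 and GIS3, of 5345 protein-coding entries at 10 FPKM or more. The smallest distance, that of FLC1, was 0.0193 in log2 units, and with 2 values per gene this likeness is a description only.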

How the data were processed

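Messenger RNA was sequenced from 9 libraries, 3 per group, with a stranded kit and 15 PCR cycles, per the labels' protocols. Per the text sheets the authors deposited, reads lost bases under quality 20 and their 12 leading bases, those shorter than 80 bp were dropped, and the rest were aligned with TopHat to the S288C genome; Cufflinks was run with the reference annotation, and Cuffdiff is named in the submitters' processing notes. The sources used here give no version, strand setting or normalisation setting. For every gene the authors deposited FPKM pooled over the libraries of a condition, with a log2 fold change, a test score, a p-value and a q-value per gene, per the file headers. The treated column was identified from the deposited lists of higher and lower genes, which hold the same 606 and 2759 (CdSe/ZnS) and 1522 and 1096 (InP/ZnS) entries as the full tables.

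Dividing each log2 fold change by its test score gave the SE. From it 2-sided normal tests with Benjamini-Hochberg adjustment were computed over all tested entries (scipy 1.17.1). They were run for fold changes as deposited, relative to the median, and freed of a coding-length trend drawn through the medians of 20 bins. Runs on simulated data used independent normal errors of the same SE that was tested. Such runs check the computation only and cannot tell whether the SEs suit these data. Also tried were a call at q under 0.01, a minimum change of 1 in log2 units, a floor of 10 FPKM, a pseudocount of 1 FPKM and, chosen after seeing the data, shares of the protein-coding sum. The 10 genes are named in full; from each other list the rule took up to 3 called genes per quantum dot, by smallest q, then larger fold, and 3 genes nearest in pattern. DAN1 with CdSe/ZnS, SPI1 with InP/ZnS, TIR2, TIR3, TIR4 and DAN4, and the motifs and their windows, were chosen outside that rule after values were seen. The 10 genes and the lists were chosen with earlier results of these data known. Protein sequences were not used here.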

Additional observations from a re-analysis of the deposited data

Results flagged for a closer look

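HSP150 and PIR3 are listed because their response differed between the quantum dots by a normal test of the difference itself. These are 2 of the 10 genes, beside 12.0% of all entries that passed in the same direction, and the median entry itself differed by -0.41. The CdSe/ZnS minus InP/ZnS difference in log2 fold change was -1.09 for HSP150 and -0.93 for PIR3. Both lost the call when each fold change was taken relative to the median of its table, at -0.68 and -0.52 by the same normal test.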

How the results depend on the processing

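No paired analysis was possible because the deposited values pool the 3 libraries of a condition, so no library was blocked by number or left out in turn. Depth is unknown and no value has a spread of its own.

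With a minimum change of 1 in log2 units, 0 of the 10 genes were higher with CdSe/ZnS and 2 were lower with InP/ZnS. All entries then numbered 906 lower and 96 higher with CdSe/ZnS, and 139 lower and 295 higher with InP/ZnS. The other wall lists numbered 18 lower and 3 higher with CdSe/ZnS, and 5 lower and 5 higher with InP/ZnS. By the normal test 5 of the 10 were lower with InP/ZnS, also relative to the median and with the length trend removed. All entries numbered 280 higher with CdSe/ZnS, and 417 lower and 592 higher with InP/ZnS; the other lists 6 higher with CdSe/ZnS, and 19 lower and 9 higher with InP/ZnS. Relative to the median, all entries numbered 862 lower with CdSe/ZnS, and 530 lower and 501 higher with InP/ZnS; the other lists 20 lower and 14 higher with CdSe/ZnS, and 23 lower and 6 higher with InP/ZnS. With the length trend removed, 5 of the 10 were lower with CdSe/ZnS, all entries numbered 704 lower, and 533 lower and 485 higher with InP/ZnS; the other lists 22 lower and 11 higher with CdSe/ZnS, and 21 lower and 6 higher with InP/ZnS. By the authors' q, 18.0% of called CdSe/ZnS entries were higher and 82.0% lower, and InP/ZnS gave 58.1% and 41.9%. By the normal test of the unshifted fold these were 13.0% and 87.0%, and 58.7% and 41.3%. By the normal test relative to the median they were 46.6% and 53.4%, and 48.6% and 51.4%. The median of the 10 with CdSe/ZnS was -1.13, and -0.78 relative to the median, -0.48 with the trend removed and -0.54 as a share.

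CCW12 with CdSe/ZnS reversed to 0.13 with the trend removed and 0.059 as a share. The difference between quantum dots reversed, relative to the medians and with the trend removed, for CCW12 (0.34 and 0.62), CWP1 (0.0014 and 0.14) and CWP2 (0.36 and 0.65), and for PIR1 with the trend removed (0.039). Of the 10 differences, 0 passed relative to the medians, with the trend removed, or at adjusted p under 0.01 (2-sided normal test; 1, 0 and 4 had an unadjusted p under 0.05). The cause was not tested. Among the alternative values of single genes, 35 lost a call, 9 without a test moved by more than their error and 9 reversed; the other 147 kept their direction and, where a test was run, their side of its threshold, genes never called included.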
